A study of Mus musculus with 8 samples.

Results

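Genes of iron storage, transport and heme breakdown were followed in the mouse brain after photothrombotic stroke with restraint stress. The group held 9 genes, taken by name: Hmox1, Fth1, Ftl1, Slc40a1, Cp, Tfrc, Trf, Slc11a2 and Ireb2. All 9 were found in both count tables, which listed 54532 genes (stroke comparison) and 28229 genes (inhibitor comparison), and all 9 passed the filter on low counts in both. RNA-seq covered 8 libraries in 4 groups of 2, all from C57BL/6 mice, male by the study's methods, with Day 21 in the labels. An age of about 3 months is given for the behavioural tests alone. The RS group had restraint stress alone, 2 libraries labelled cortex. The PTS + RS group had restraint stress after a photothrombotic stroke, made with Rose Bengal and light over the exposed skull, 2 libraries also labelled cortex. The HDAC3 inhibitor group was PTS + RS mice given RGFP109 under the skin at 60 mg/kg each day. The methods give 2 weeks of dosing, whereas a figure legend of the study gives 21 consecutive days. The NaCl group, as the labels name it, was the control of the inhibitor group, also in PTS + RS mice. The study's text calls the control of RGFP109 vehicle. In both of the latter groups replicate 1 was labelled cortex and replicate 2 amygdala. No unstressed or sham library was analysed here, so both arms of each comparison carried the restraint stress. The methods mention pooling and barcoding of samples but do not say how many mice a library held, so p-values measure the spread between these libraries, which may be technical.

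Iron entering the brain is carried by transferrin (Trf) and taken into cells through the transferrin receptor (Tfrc), and it crosses the endosomal membrane through DMT1 (Slc11a2). Inside the cell it is stored in ferritin, a shell of heavy (Fth1) and light (Ftl1) chains, and it leaves through ferroportin (Slc40a1) with the help of the copper oxidase ceruloplasmin (Cp). Heme oxygenase 1 (Hmox1) opens the heme ring and sets iron free, for instance where hemoglobin is broken down after injury. The iron regulatory proteins, of which IRP2 (Ireb2) is one, bind hairpins called iron-responsive elements. Bound at the start of a message they hold back its translation, and bound at its end they protect it from decay. In brain tissue ferritin is abundant in oligodendrocytes and in microglia, and Trf is a product of oligodendrocytes and choroid plexus.

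The elements themselves are shown because they tie the storage, export and uptake genes to the same regulators. The search took windows of 29 bases in untranslated exons of GENCODE M21 (GRCm38) on the gene's strand: the loop CAGTGN, 5 paired bases on each side of it, an unpaired C before them, and at least 4 of 6 further pairs, with G and T counted as a pair. It matched 4 of the 9 genes, Fth1, Ftl1 and Slc40a1 once each at the 5-prime end and Tfrc 4 times at the 3-prime end. Among all genes searched 0.0283% matched at the 5-prime end (6 of 21200) and 0.0849% at the 3-prime end (18 of 21193). No match for the other 5 genes says only that these letters were not found. The 3 elements at the 5-prime end follow, with the 6 bases of the loop in capitals. They lay within 1 exon each, at chr19:9982732-9982760 on the plus strand for Fth1, chr7:45459779-45459807 on the minus strand for Ftl1 and chr1:45925465-45925493 on the minus strand for Slc40a1.
Fth1: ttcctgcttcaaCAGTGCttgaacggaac
Ftl1: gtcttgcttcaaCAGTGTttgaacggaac
Slc40a1: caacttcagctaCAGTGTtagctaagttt
The 4 elements of Tfrc, in the same notation, lay on the plus strand at chr16:32631219-32631247, chr16:32631598-32631626, chr16:32631663-32631691 and chr16:32631710-32631738.
Tfrc element 1: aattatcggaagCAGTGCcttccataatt
Tfrc element 2: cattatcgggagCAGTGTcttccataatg
Tfrc element 3: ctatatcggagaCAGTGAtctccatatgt
Tfrc element 4: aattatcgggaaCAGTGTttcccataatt

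Levels of different genes were compared as TPM, which divides counts by gene length and scales each library to the same sum. Fth1 was by far the most abundant, with a median of 6060 TPM over the 8 libraries (range 2804 to 7497). Ftl1 followed at 292 TPM (224 to 510) and Tfrc at 65.2 TPM (49.3 to 79.3). The ranges of these 3 genes did not overlap with each other or with that of any other of the 9. Slc11a2 (35.6 TPM, 32.1 to 38.9) and Ireb2 (32.0 TPM, 29.6 to 39.1) came next with overlapping ranges. Hmox1 had a median of 14.6 TPM and the widest relative range, 7.80 to 39.4. It reached from below the lowest library of Trf to just above the highest of Ireb2 and Slc11a2. Trf (13.1 TPM, 9.28 to 21.95) and Cp (8.76 TPM, 7.50 to 16.6) overlapped with each other. Slc40a1 was lowest at 4.55 TPM, and its highest library (7.11) lay under the lowest of Cp. The value of Trf is uncertain, since 63.5% of its exon bases also belong to a readthrough gene, Gm20425, on the same strand. Of the exon bases of Ftl1, 8.13% are shared on the same strand and 26.5% on the other. The count table of the stroke comparison listed 16 annotated copies or relatives of ferritin. Of these, 15 had 3 counts or fewer in each of its libraries and the highest reached 42 counts. Their counts in the inhibitor experiment were not examined.

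Depth ranged from 15902013 to 21712033 counts per library, and the spread between replicates was far wider in the inhibitor experiment, with a common coefficient of biological variation of 32.1% against 11.4%. The libraries were also not alike in tissue. Summed choroid plexus markers stood at 1629, 1843, 3840 and 1526 CPM (counts scaled to a common library total after TMM normalization) in PTS + RS 1, RS 1, RS 2 and HDAC3 inhibitor 1, and between 13.4 and 46.9 CPM in the other 4. The 2 libraries labelled amygdala had more of the summed cortex markers (792 and 710 CPM) than the 2 labelled cortex in that experiment (533 and 372 CPM). Their summed amygdala markers (151 and 159 CPM) lay around those of the cortex-labelled pair (152 and 84.7 CPM), so the markers did not bear out the tissue labels. NaCl 1 stood apart, with 1131 counts of S100a5, a gene of olfactory neurons that was chosen after its values were seen and had 0 counts in the other 3 libraries of that table. Results of the HDAC3 inhibitor against NaCl are therefore given with and without single libraries.

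**Figure D1:**
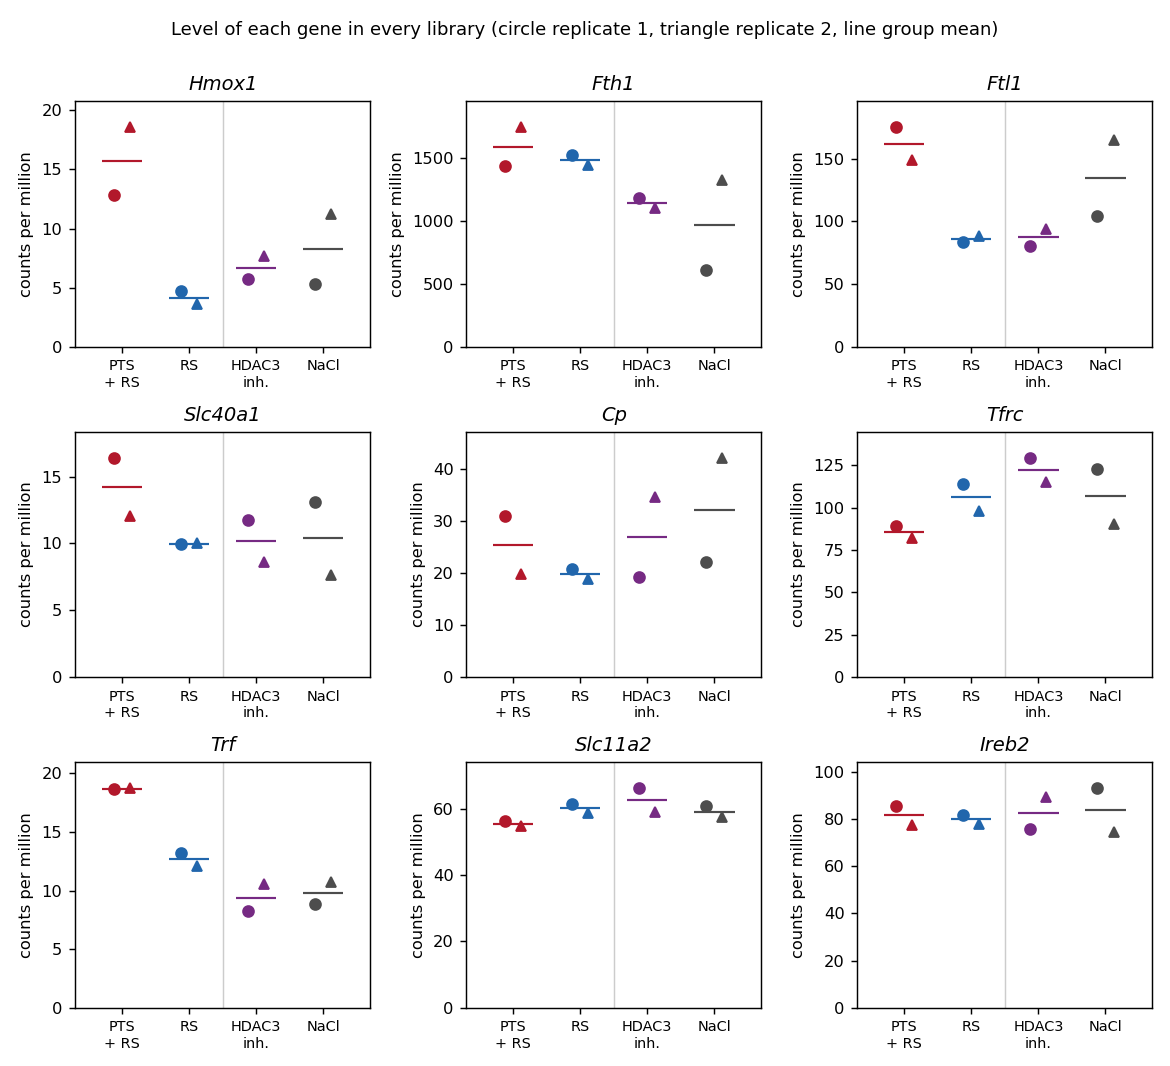
CPM (vertical axes, from 0) of each of the 9 genes in the 8 libraries, by group, with circles for replicate 1, triangles for replicate 2 and a line at the group mean. Hmox1, Ftl1 and Trf sat higher in both PTS + RS libraries than in both RS libraries, while Fth1, Cp and Ireb2 overlapped.

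The first comparison, PTS + RS against RS, asked what a stroke adds to restraint stress in the cortex. Hmox1 and Ftl1 rose and the other 7 genes did not pass the test. These 2 of 9 stood against a background of 3.55% of the 17581 genes tested, of which 2.96% were higher and 0.586% lower. With a fold of at least 2 as well, 1 of the 9 was called, Hmox1, against 2.21% of genes. Hmox1 was 3.77-fold and Ftl1 1.89-fold higher, while Fth1, the partner of Ftl1 in the ferritin shell, differed by a log2 fold change of 0.10 (SE 0.12). Of the 9 genes, 7 had positive and 2 negative log2 fold changes, with a median of 0.36, against -0.0015 for all genes tested. The libraries of the groups did not overlap for 6 of the 9, but this was also so for 50.2% of all genes tested. In 7 of the 9 both replicate numbers gave the same direction, as in 63.9% of all genes.

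Hmox1 had 12.8 and 18.6 CPM in the PTS + RS libraries (220 and 310 counts) and 4.69 and 3.597 CPM in the RS libraries (85 and 57 counts). Both stroke libraries were well above both RS libraries. The log2 fold change was 1.91 (SE 0.24, 95% interval 1.34 to 2.49, adjusted p = 0.0084 by the quasi-likelihood test of edgeR, Benjamini-Hochberg over all genes tested), from means of 15.7 ± 4.04 and 4.14 ± 0.773 CPM (SD, n = 2 each). It was 1.43 within replicate 1 and 2.33 within replicate 2. The other genes that act on heme beside Hmox1 had smaller values: Hmox2, the constitutive oxygenase, had a log2 fold change of 0.15, Blvra 0.14 and Blvrb 0.28, the latter pair being the biliverdin reductases that take up its product, and none passed the test.

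The ferritin light chain Ftl1, known for helping the shell mineralise iron, had 175 and 149 CPM in PTS + RS (2998 and 2492 counts) and 83.2 and 88.0 CPM in RS (1508 and 1395 counts). The stroke libraries lay far above the RS libraries, which differed little from each other. Its log2 fold change was 0.92 (SE 0.097, 95% interval 0.69 to 1.15, adjusted p = 0.0038), under a 2-fold limit. The heavy chain Fth1, which carries the ferroxidase site, had 1439 and 1746 CPM in PTS + RS and 1525 and 1444 CPM in RS. These libraries overlapped, and the 95% interval of the difference ran from -0.19 to 0.39 on the log2 scale (adjusted p = 0.73), a range that does not reach the interval of Ftl1. Without PTS + RS 1 it passed at a log2 fold change of 0.23 (adjusted p = 0.041), and without PTS + RS 2 its value was -0.045. Those fits called 9.69% and 16.3% of all genes.

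When all 8 libraries were fitted together, so that the wider spread of the inhibitor experiment entered the estimate, both calls were lost (adjusted p = 0.21 for Hmox1 and 0.26 for Ftl1), as were all others. A log2 limit of 1 also leaves out Ftl1. In the other alternative fits both had an adjusted p under 0.05, from 1.9e-17 to 0.035 for Hmox1 and from 3.4e-19 to 0.046 for Ftl1.

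**Figure D2:**
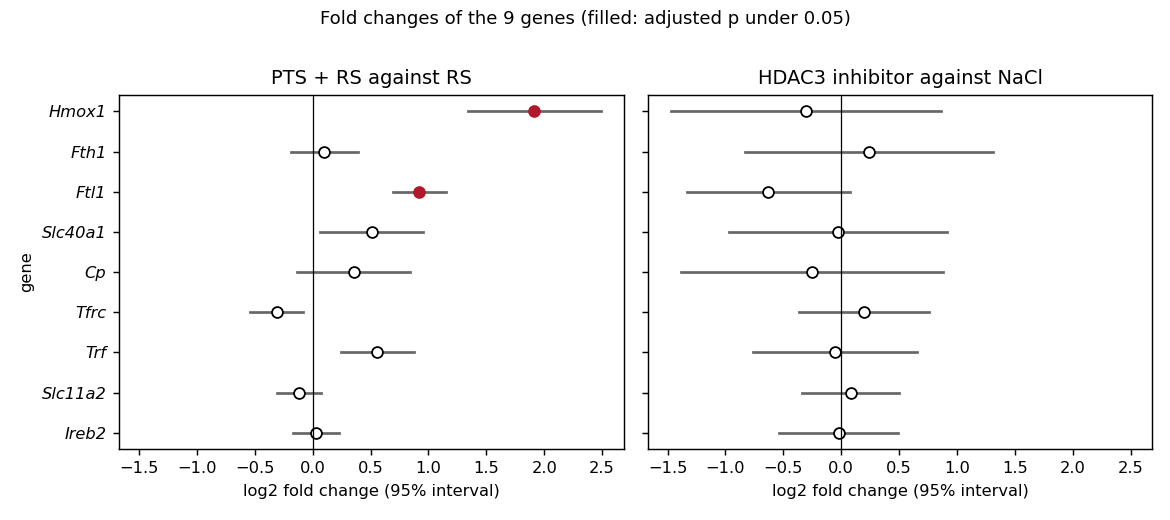
Log2 fold change (horizontal axis) with its 95% interval for each of the 9 genes, PTS + RS over RS on the left and HDAC3 inhibitor over NaCl on the right, filled where the adjusted p was under 0.05. Hmox1 and Ftl1 were called on the left, no gene was called on the right, and the intervals on the right are wider.

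The cell type markers that moved with these genes were those of glia. Microglia markers were called higher for 10 of 10 genes, with a median log2 fold change of 1.88, and their summed level was 1408 and 1206 CPM in PTS + RS against 338 and 308 CPM in RS. No microglia marker was at 0 in any library. Astrocyte markers were called higher for 5 of 7 (3581 and 2799 against 1312 and 1266 CPM). Of the macrophage list 6 of 7 genes were tested, all 6 were higher and 1 was called (36.1 and 16.8 against 12.6 and 10.6 CPM). Choroid plexus markers were lower for 9 of 9, endothelial markers higher for 7 of 7, and neuron markers lower for 6 of 8, with none called in these lists. Cortex markers were higher for 5 of 8 and amygdala markers for 5 of 7 tested, again with none called. Summed erythroid markers, mostly hemoglobin, were 40.9 and 37.3 CPM in PTS + RS and 61.2 and 45.5 CPM in RS, with none called. Per 1000 CPM of microglia markers, a scale chosen after the data were seen, Hmox1 was 9.12 and 15.4 in PTS + RS and 13.9 and 11.7 in RS. On that scale the groups overlapped, and Ftl1 was lower in PTS + RS (124 and 124) than in RS (246 and 286). The part of the microglia and astrocyte markers in these results was not tested. In bulk tissue, fewer cells of a type and less RNA per cell cannot be told apart, and the same holds for more.

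**Figure D3:**
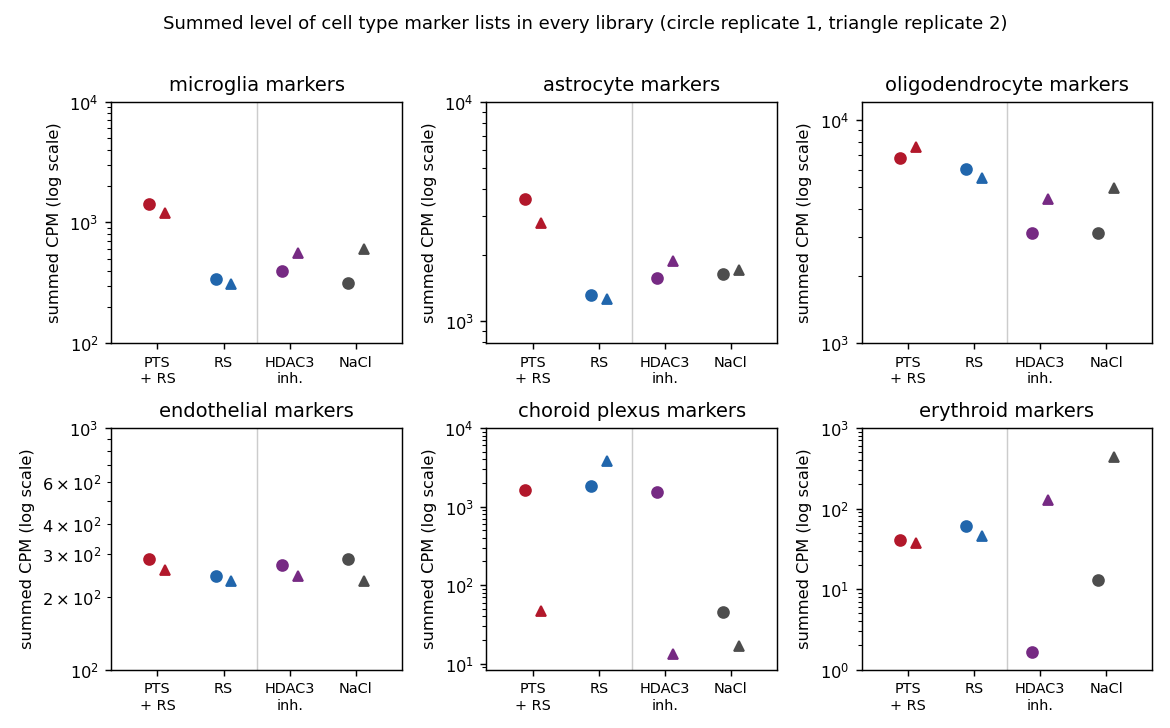
Summed CPM (log scale) of 6 cell type marker lists in the 8 libraries, with circles for replicate 1 and triangles for replicate 2. Microglia and astrocyte markers were higher in both PTS + RS libraries than in any other library. Choroid plexus markers were high in both RS libraries, PTS + RS 1 and HDAC3 inhibitor 1, and low in the rest. Erythroid markers were highest in replicate 2 of HDAC3 inhibitor and NaCl.

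Of the uptake genes, none passed the test. Trf, the iron carrier, had 18.7 and 18.7 CPM in PTS + RS and 13.2 and 12.1 CPM in RS. Its libraries did not overlap between groups, with a log2 fold change of 0.56 (SE 0.13, adjusted p = 0.076). It passed without the filter on low counts (adjusted p = 0.023, with 6.1% of 30105 genes called). With single libraries left out, the log2 fold change of Trf ran from 0.49 to 0.63. Summed oligodendrocyte markers moved the same way, at 6734 and 7564 CPM against 6067 and 5475 CPM, with 9 of 9 higher and none called, and their part in the value of Trf was not tested. Trf was at the same level in PTS + RS 1 and PTS + RS 2, which had 1629 and 46.9 CPM of choroid plexus markers, and the part of these markers was not tested either.

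Tfrc, the receptor, went the other way, with 88.9 and 81.9 CPM in PTS + RS and 114 and 98.3 CPM in RS. Again the groups did not overlap, and the log2 fold change was -0.31 (SE 0.096, adjusted p = 0.15). It passed without the filter (adjusted p = 0.023, with 6.1% of 30105 genes called). With single libraries left out, the log2 fold change of Tfrc ran from -0.42 to -0.20. Slc11a2, which moves ferrous iron out of the endosome, had 56.2 and 54.9 CPM in PTS + RS and 61.6 and 58.8 CPM in RS, a log2 fold change of -0.12 (SE 0.081, adjusted p = 0.51). The interval of Slc11a2, -0.31 to 0.076, leaves room only for small differences.

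The export genes did not pass either, and both varied within PTS + RS. Slc40a1, the only known iron exporter, had 16.4 and 12.03 CPM in PTS + RS and 9.93 and 10.03 CPM in RS, a log2 fold change of 0.51 (SE 0.19, adjusted p = 0.22). Cp, which oxidises the exported iron, had 31.1 and 19.9 CPM in PTS + RS and 20.9 and 19.0 CPM in RS, a log2 fold change of 0.36 (SE 0.21, adjusted p = 0.42). For both genes PTS + RS 1 was the high library. Without PTS + RS 2 the log2 fold change was 0.72 for Slc40a1 and 0.64 for Cp. Without PTS + RS 1 it was 0.27 for Slc40a1 and -0.0014 for Cp. Each of these fits rests on 1 stroke library. PTS + RS 1 was also the stroke library with choroid plexus markers, at 1629 CPM against 46.9 CPM in PTS + RS 2, but RS 2 had the most of all (3840 CPM) and was low in both genes. The part of these markers was not tested. Ireb2, the regulator that binds the elements shown above, had 85.6 and 77.4 CPM in PTS + RS and 81.6 and 78.0 CPM in RS, with a 95% interval of -0.17 to 0.23 around its log2 fold change of 0.03 (adjusted p = 0.89).

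The genes that share an element at the same end therefore gave unlike values: Ftl1 rose, Slc40a1 had a log2 fold change of 0.51 and Fth1 of 0.10. The elements are known to act on translation at the 5-prime end and on decay at the 3-prime end, and protein was not measured in these libraries.

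The balance of the ferritin chains was compared within each library. The ratio of Fth1 to Ftl1 in TPM was 12.7 and 18.1 in the PTS + RS libraries and 28.4 and 25.4 in the RS libraries. In the inhibitor experiment it was 22.9 and 18.2 with the HDAC3 inhibitor and 8.99 and 12.5 with NaCl. The groups did not overlap in either experiment, with the ratio lower in both PTS + RS libraries than in RS and higher in both HDAC3 inhibitor libraries than in NaCl. The lowest ratio, 8.99, was that of NaCl 1, the library with S100a5. Its Fth1 was 609 CPM, against 1106 to 1329 CPM in the other libraries of that experiment. NaCl 2, at 12.5, also lay under both inhibitor libraries. On the log2 scale Ftl1 over Fth1 was 0.82 higher in PTS + RS (-3.92 ± 0.36 against -4.75 ± 0.11, SD, n = 2 each) and 0.95 lower with the inhibitor (-4.35 ± 0.23 against -3.40 ± 0.33). An exact two-sided permutation test gave p = 0.33 for each, which is the smallest that 2 against 2 libraries allow, so that neither difference could have passed. The deposited FPKM give the same ratio by construction. Counts of Fth1 were divided by the deposited length of 866 bases, whereas GENCODE M21 lists 2731 exon bases. The TPM of Fth1 and the size of the ratio depend on that length. The log2 differences of the ratio between groups do not.

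**Figure D4:**
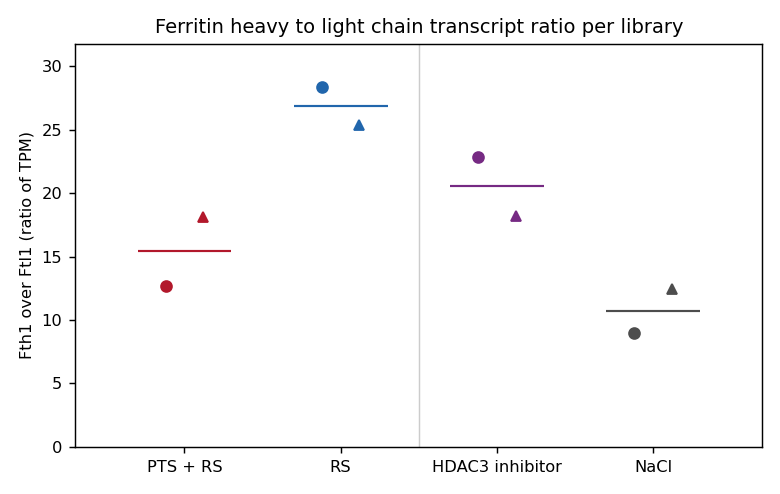
Ratio of Fth1 to Ftl1 in TPM (vertical axis, from 0) in each of the 8 libraries by group, with circles for replicate 1, triangles for replicate 2 and a line at the group mean. The PTS + RS libraries (12.7 and 18.1) lie under the RS libraries (28.4 and 25.4), and the inhibitor libraries (22.9 and 18.2) lie over the NaCl libraries (8.99 and 12.5).

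A wider list of 55 genes of iron and heme handling was counted in the same comparison, of which 49 were tested. Of these, 2 were called, both higher, a share close to the background of 3.55%, and the median log2 fold change of the 49 was 0.066 (30 higher, 19 lower). The called genes were Lcn2 and Nfe2l2. Lcn2, a protein that binds iron through bacterial siderophores and is made by reactive astrocytes, had 104 and 136 counts in PTS + RS and 2 and 3 counts in RS. That is a 48.2-fold ratio with a counting interval of 20.4 to 150 (exact, 95%, counting error only; adjusted p = 0.0011 by edgeR). Nfe2l2, which encodes NRF2, an activator of Hmox1 and of both ferritin genes, had 39.1 and 28.7 CPM in PTS + RS and 15.2 and 16.2 CPM in RS. Its log2 fold change was 1.11 (SE 0.17, adjusted p = 0.016). The call of Nfe2l2 was lost without RS 1 (adjusted p = 0.11) or RS 2 (0.054), and both calls were lost in the fit of all 8 libraries (0.18 for Nfe2l2 and 0.60 for Lcn2). Of the other transcriptional regulators none was called by edgeR with the filter on low counts, no block and no library left out. With the replicate block 1 more gene was called, Keap1, the NRF2 inhibitor, at a log2 fold change of -0.39 (adjusted p = 0.041). DESeq2 and limma-voom each called 1 more, Slc22a17, a receptor for Lcn2, at -0.44 (adjusted p = 0.0011 and 0.039). Without the filter edgeR called both (adjusted p = 0.0066 for Keap1 and 0.00025 for Slc22a17) and further genes of the list. That fit called 6.1% of 30105 genes. At an unadjusted p under 0.05 the list had 18 of 49 genes, against 17.9% of all genes tested.

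By group, 1 of 10 uptake genes and 1 of 5 transcriptional regulators were called. None was called among the 3 storage and ferritin turnover genes, the 2 further genes of the iron regulatory proteins, the 4 export and hepcidin genes, the 8 genes of heme uptake, transport and breakdown, the 9 of heme synthesis and the 8 of mitochondrial iron. Median log2 fold changes of these groups ran from -0.48 for export and hepcidin to 0.31 for the transcriptional regulators. The changes of the 9 heme synthesis genes lay between -0.27 and 0.76.

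**Figure D5:**
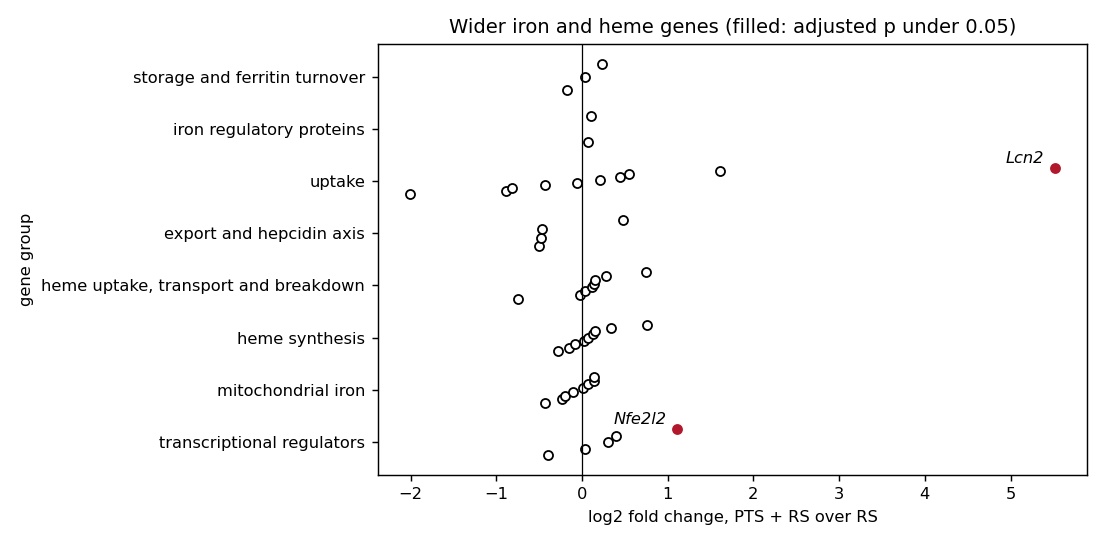
Log2 fold change, PTS + RS over RS (horizontal axis), of the 49 tested genes of the wider iron and heme list, by group, filled where the adjusted p was under 0.05. Lcn2 (5.52) and Nfe2l2 (1.11) were called, and most other genes lie near 0.

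The second comparison asked what the HDAC3 inhibitor RGFP109 changes in PTS + RS mice. Summed microglia markers were 315 and 605 CPM in the NaCl libraries. They were 1408 and 1206 CPM in PTS + RS and 338 and 308 CPM in RS. Hmox1 was 5.29 and 11.3 CPM in NaCl, against 12.8 and 18.6 CPM in PTS + RS. Ftl1, at 105 and 165 CPM, overlapped with its PTS + RS values of 175 and 149 CPM. The experiments were normalized apart, and differences between them were not tested. None of the 9 genes was called by edgeR, at a background of 0% of 17565 genes, and none had an unadjusted p under 0.05, as 1.17% of all genes had. DESeq2 and limma-voom also called none of the 9. Of these, 3 had positive and 6 negative log2 fold changes, with a median of -0.027 against -0.016 for all genes tested. Ftl1 was the one gene of the 9 whose groups did not overlap, as was so for 26.6% of all genes tested.

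Ftl1 had 80.4 and 94.0 CPM with the inhibitor (1267 and 2012 counts) and 105 and 165 CPM with NaCl (1841 and 3036 counts). Both inhibitor libraries lay under both NaCl libraries, and in both replicate numbers the inhibitor library was the lower (log2 ratios of -0.38 and -0.81). The log2 fold change was -0.63 (SE 0.27, 95% interval -1.34 to 0.077, adjusted p = 1.00). With the replicate number as a block the unadjusted p was 0.038, and the adjusted p remained at 1.00. Without NaCl 2 the log2 fold change was -0.26, and without NaCl 1 it was -0.93.

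Hmox1 had 5.71 and 7.67 CPM with the inhibitor and 5.29 and 11.3 CPM with NaCl, so that the inhibitor libraries lay between the NaCl libraries (log2 fold change -0.31, SE 0.45, 95% interval -1.47 to 0.86). Without NaCl 2 its log2 fold change was 0.35. In both groups the amygdala-labelled replicate 2 was the higher library. Summed erythroid markers were also higher there, at 127 and 439 CPM against 1.65 and 13.1 CPM in replicate 1, as were summed microglia markers (561 and 605 against 397 and 315 CPM). In HDAC3 inhibitor 1, Hba-a2, Hbb-bt and Slc4a1 were at 0. The part of blood or microglia in the level of Hmox1 was not tested.

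Fth1 had 1188 and 1106 CPM with the inhibitor and 609 and 1329 CPM with NaCl. The low value was that of NaCl 1, the library with S100a5, and the log2 fold change of 0.24 (SE 0.41) became -0.22 without NaCl 1 and 0.92 without NaCl 2. Cp had 19.2 and 34.6 CPM with the inhibitor and 22.1 and 42.2 CPM with NaCl, and the split lay between the replicate numbers rather than the treatments. Slc40a1 split the opposite way, with 11.7 and 8.65 CPM with the inhibitor and 13.1 and 7.67 CPM with NaCl.

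The remaining 4 genes differed little. Tfrc had 129 and 115 CPM with the inhibitor and 123 and 90.4 CPM with NaCl, and Trf had 8.25 and 10.6 CPM against 8.82 and 10.7 CPM. Slc11a2 had 66.2 and 59.0 CPM against 61.0 and 57.4 CPM, and Ireb2 had 75.6 and 89.1 CPM against 93.0 and 74.4 CPM. Their log2 fold changes lay between -0.053 and 0.20, each smaller than its SE. The 95% intervals were as wide as -0.76 to 0.65 for Trf, so that changes well over those seen could have gone undetected. None of the 49 tested genes of the wider list was called, and 1 had an unadjusted p under 0.05. Lcn2 had 25 and 273 counts with the inhibitor and 4 and 482 counts with NaCl, so it too was high in both replicate 2 libraries.

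Within the inhibitor experiment, the libraries labelled amygdala were also compared with those labelled cortex, with treatment in the model. None of the 9 genes was called by edgeR, at a background of 0% of 17565 genes, and 1 of the 9 had an unadjusted p under 0.05, against 9.15% of all genes. That gene was Cp, at 38.4 ± 5.38 CPM in the amygdala-labelled libraries against 20.6 ± 2.02 CPM in the cortex-labelled ones (SD, n = 2 each; log2 fold change 0.89, SE 0.20, adjusted p = 0.41). Hmox1 had a log2 fold change of 0.76 (SE 0.32, adjusted p = 0.58) and Slc40a1 of -0.61 (SE 0.26, adjusted p = 0.60). The groups did not overlap for 6 of the 9 genes, against 44% of all genes tested. Without HDAC3 inhibitor 1, 4 of the 9 were called, Cp, Hmox1 and Fth1 higher and Slc40a1 lower, but 28.3% of all genes were called in that fit. Without NaCl 1, Cp and Ftl1 were called, with 13.5% of all genes. Tissue label and replicate number were the same in this experiment and cannot be told apart.

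Over the 8 libraries, the genes whose log2 CPM ran most like that of Hmox1 among 12400 candidates of at least 5 CPM on average were Dnajc2 (Pearson r = 0.96), Fes (0.96) and Tyrobp (0.96), the last an adaptor protein of microglia. For Fth1 they were 2010204K13Rik (0.99), Bcar1 (0.98) and Il1r1 (0.98). These correlations are descriptions over 8 libraries of 4 groups and 2 experiments, whose differences in group, experiment and tissue they share.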

How the data were processed

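Reads of each library were mapped by the authors to GRCm38 (STAR 2.4.0) and assigned to genes (HTSeq 0.6.1), per the labels and the methods of the study, and the raw counts were deposited. The labels and the methods name different library kits, so whether counting used strand is uncertain. The deposited FPKM are the authors' counts per gene length and library size. The authors' fold changes, p-values and group means, and 8 per-sample columns of normalized signal, were not used. The 9 genes and all gene lists were chosen with earlier results of these data known.

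Genes were filtered with filterByExpr, scaled by TMM and tested by edgeR 4.0.16 (quasi-likelihood) in R 4.3.3, separately for each table, with Benjamini-Hochberg adjustment over all genes tested. A call is an adjusted p under 0.05. The methods name limma, and limma-voom (limma 3.58.1), DESeq2 1.42.0, RLE scaling, no filter, a replicate block, leaving out each library, 1 fit of all 8 libraries and a log2 limit of 1 were alternatives. The SE is the log2 fold change over the root of its F value, and intervals are at 95%. Log2 ratios of single libraries used a prior count of 2. Named were the 9 genes, called genes of the wider list, and for Hmox1, Fth1 and Trf the 3 most alike genes (those of Trf are not reported here). Other genes were named after their values were seen. Fth1 spans chr19:9982703-9985092 in the deposited tables and starts further upstream in GENCODE M21 (9980598), and the other 8 genes have the same coordinates in both. Scripts were tested on simulated data. Replicates of every group differed by more than sampling noise. Deviations of same-numbered libraries correlated at 0.035 in the stroke comparison and 0.30 in the inhibitor comparison, where the number also marks the tissue label.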

Additional observations from a re-analysis of the deposited data

Results flagged for a closer look

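In the inhibitor experiment 4 of the 9 genes had opposite directions in the cortex-labelled (replicate 1) and amygdala-labelled (replicate 2) libraries, each a log2 ratio of 1 HDAC3 inhibitor library over 1 NaCl library. Hmox1 was at 0.11 in the cortex-labelled pair and -0.55 in the amygdala-labelled pair, and Fth1 at 0.97 and -0.27. The cortex-labelled pair includes NaCl 1, the library with S100a5, and the markers did not bear out these labels. Slc40a1 was at -0.16 and 0.17, and Ireb2 at -0.30 and 0.26. With 1 library on each side these differences were not tested. The other 5 genes had the same direction in both labels, as did 48.6% of all genes tested.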

How the results depend on the processing

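In PTS + RS against RS, 624 genes were called. The number was 389 with a log2 limit of 1, 1835 without the filter, 0 in the fit of all 8 libraries and 216 to 2866 with single libraries left out (216 without RS 1, 250 without RS 2, 1703 without PTS + RS 1, 2866 without PTS + RS 2). For the 9 genes it was 2, and then 1, 4, 0 and 2 to 5 (5 without PTS + RS 1 or PTS + RS 2). For the wider list it was 2, and then 8 without the filter, 0 with all 8 libraries and 1 to 11 with single libraries left out (1 without RS 1 or RS 2, 10 without PTS + RS 1, 11 without PTS + RS 2). In the inhibitor comparison, leaving out single libraries gave 0 to 8 called genes (8 without NaCl 2), none of them among the 9. In the tissue label comparison those fits dropped the treatment term and left 1 label with a single library, so their counts are not given. The ferritin ratio kept its direction, 0.57 to 1.08 and -1.18 to -0.71.

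Leaving out single libraries turned the log2 fold change of Fth1 (-0.045 to 0.23), Cp (-0.0014 to 0.64) and Ireb2 (-0.044 to 0.10) in the stroke comparison. In the inhibitor comparison it turned Hmox1 (-0.75 to 0.35), Fth1 (-0.22 to 0.92), Slc40a1 (-0.36 to 0.40), Cp (-0.74 to 0.30), Tfrc (-0.00057 to 0.43), Trf (-0.24 to 0.11), Slc11a2 (-0.0052 to 0.16) and Ireb2 (-0.17 to 0.14). With the replicate block, Slc40a1 was at 0.0069 there. The block changed no other direction and no call of the 9 genes. Within single replicate numbers, added after the data were seen, Fth1 was at -0.084 (number 1) and Ireb2 at -0.010 (number 2) in the stroke comparison. In the inhibitor comparison Hmox1 was at 0.11 (number 1), and Fth1 at -0.27, Slc40a1 at 0.17 and Ireb2 at 0.26 (number 2). Where the number of samples did not itself change, the cause was not tested. With 2 libraries a group, the spread between replicates was above sampling noise on average over genes. For genes with few counts the part of depth was not tested.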
